A study of Mus musculus with 12 samples.

Results

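The genes described here are the plasminogen activators, their receptor and their inhibitors in MLE12 cells, a line of mouse lung epithelium from a tumour driven by SV40 large T antigen. The members asked for were Plau, Plaur, Plat, Serpine2 and Serpinb2, and a probe set was taken where the array annotation gave it exactly 1 of these symbols. That found 4 probe sets among 41345, 1 each for Plau (17297537), Plaur (17474974), Plat (17499962) and Serpinb2 (17216458). No probe set carried the symbol Serpine2 alone, so the signal of that inhibitor was not analysed here. A further probe set, shared by Serpinb10 and Serpinb2, was kept out by the same rule.

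RNA was measured on 12 Affymetrix arrays in 4 groups of 3 biological replicates. NANCI_shRNA cells received a lentiviral pLKO.1 construct with an shRNA against the long noncoding RNA NANCI, and NANCI_control cells a scrambled shRNA. LL34_shRNA cells received an shRNA against the noncoding RNA LL34, and LL34_control cells a scrambled shRNA of their own set. All 4 groups were thus infected for 12 hours at 60% confluency and collected after 65 hours of subculture, and none was left uninfected. Whether more than 1 shRNA sequence was used per target, and whether replicates were separate infections, is not stated. The limma p-values set a change against the spread of arrays within groups, pooled over the 4 groups, and that spread may be technical.

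Plasminogen is a circulating zymogen that becomes plasmin, a broad serine protease, when it is cut by urokinase (Plau) or by tissue plasminogen activator (Plat). Urokinase acts mainly at the cell surface, held by its GPI-anchored receptor (Plaur), whereas tissue plasminogen activator is best known for dissolving fibrin. Serpins such as Serpine2 and Serpinb2 block both activators, and in the lung the system clears fibrin from the airspace and takes part in epithelial repair.

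Values are log2 signals, so a change of 1 is a doubling. The median of an array was 6.84 to 6.88 with the NANCI constructs and 6.54 to 6.61 with those for LL34, and levels were therefore tested only within a set. Arrays correlated with the rest of their own group at 0.988 or higher on average, the lowest being LL34_control replicate 3. As a background level, the 95th percentile of 1108 olfactory receptor probe sets lay between 6.34 and 6.87 on single arrays. Sfta3-ps, for which Nanci is a listed synonym, fell to 13.3% of its scrambled level in NANCI_shRNA cells and to 62.6% in LL34_shRNA cells. The LL34 RNA itself was not analysed here. In bulk RNA, fewer cells with a transcript and less transcript per cell cannot be told apart.

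Urokinase and its receptor rose after NANCI shRNA and fell after LL34 shRNA, while tissue plasminogen activator fell after both. Serpinb2 stayed below the background level on all 12 arrays. By limma with Benjamini-Hochberg adjustment at 0.05, 3 of the 4 members were called after NANCI shRNA, 2 higher and 1 lower, where 19.9% of all probe sets were called (10.3% higher and 9.60% lower). After LL34 shRNA 3 of 4 were called, all lower, where 16.4% of all probe sets were called (9.70% higher and 6.66% lower). With quantile normalization over all arrays the LL34 split over all probe sets was 3307 higher and 3463 lower, in place of 4011 and 2755.

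**Figure D1:**
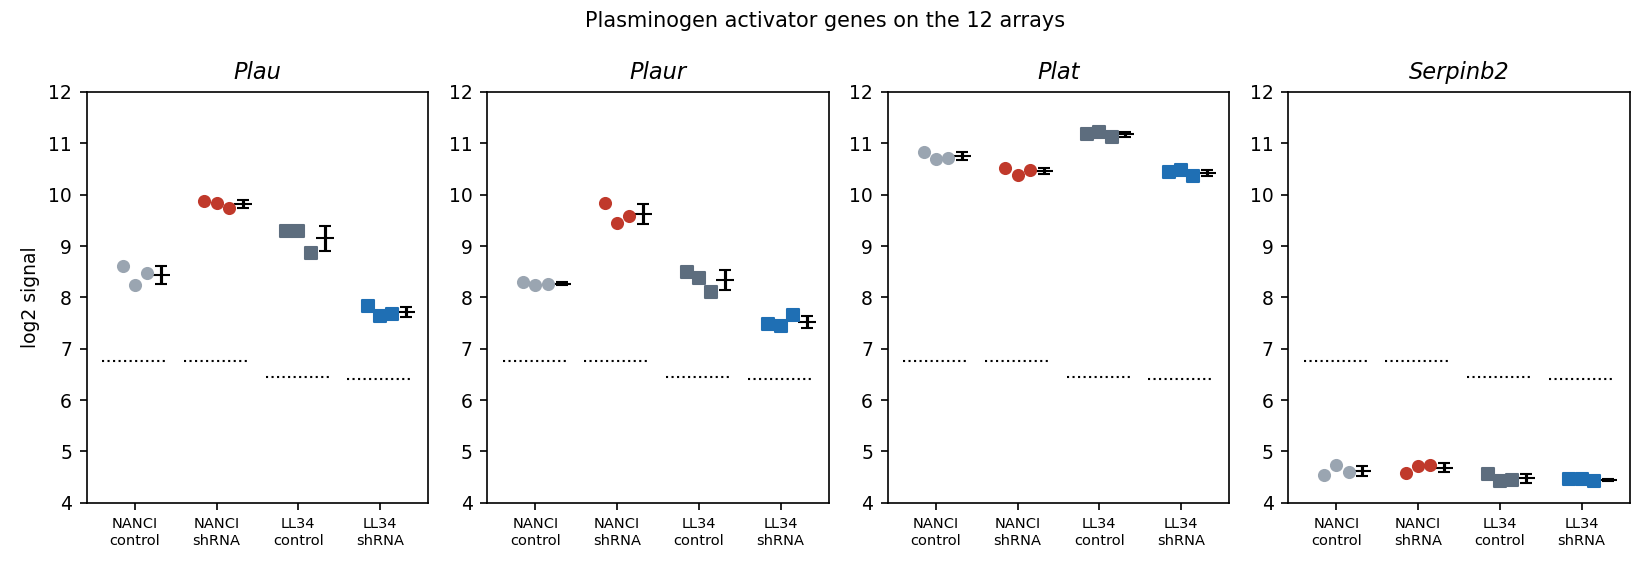
Log2 signal of the 4 members on each of the 12 arrays, by group; points are arrays, the dash with bars is the group mean ± SD (n = 3), and the dotted line is the group mean of the 95th percentile of olfactory receptor probe sets. Plau and Plaur are highest in NANCI_shRNA and lowest in LL34_shRNA, Plat is highest in LL34_control, and Serpinb2 lies below the dotted line throughout.

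Plau encodes urokinase, the activator that works at the cell surface. On the NANCI_shRNA arrays its log2 signal was 9.88, 9.83 and 9.74, and on the NANCI_control arrays 8.60, 8.24 and 8.47. All 3 shRNA arrays lay above all 3 scrambled arrays, as happened in that direction for 17.5% of all probe sets. The mean went from 8.44 ± 0.182 to 9.82 ± 0.0721 (SD, n = 3 each), a 2.60-fold rise of 1.38 on the log2 scale (SE 0.123, 95% confidence interval 1.11 to 1.65, limma adjusted p = 1.49e-05). Ranked by size of rise, Plau stood at 96 of 41345 probe sets.

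Plau went the other way in the LL34 set. Its signal was 7.83, 7.63 and 7.68 on the LL34_shRNA arrays and 9.29, 9.29 and 8.87 on the LL34_control arrays. The groups did not overlap, as was so for 12.3% of all probe sets in the lower direction, and LL34_control replicate 3 was the lowest of the scrambled arrays. The mean fell from 9.15 ± 0.241 to 7.71 ± 0.101, a change of −1.44 (SE 0.123, 95% confidence interval −1.71 to −1.17, limma adjusted p = 2.33e-05). That left 36.9% of the scrambled level, and the change ranked 68 among all falls. The difference between the NANCI and LL34 changes was 2.82 (SE 0.173, limma adjusted p = 2.23e-06), where 18.8% of all probe sets were called.

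Plaur encodes the urokinase receptor, which concentrates urokinase at the cell membrane and also binds vitronectin and signals beside integrins. NANCI_shRNA arrays read 9.83, 9.45 and 9.59, and NANCI_control arrays 8.30, 8.24 and 8.26. The groups were separate, and the 3 scrambled arrays lay close together. From 8.27 ± 0.0290 to 9.62 ± 0.194 (SD, n = 3 each), Plaur rose 2.56-fold, by 1.36 on the log2 scale (SE 0.114, 95% confidence interval 1.10 to 1.61, limma adjusted p = 1.05e-05), at rank 105 of all rises.

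In the LL34 set Plaur fell less steeply than Plau. The LL34_shRNA arrays gave 7.48, 7.44 and 7.65, and the LL34_control arrays 8.50, 8.38 and 8.11. These groups did not overlap either, and the lowest scrambled array was again replicate 3. The change was −0.81 (SE 0.114, 95% confidence interval −1.06 to −0.56, limma adjusted p = 0.000641), from 8.33 ± 0.197 to 7.52 ± 0.115, which left 57.1% of the scrambled level. The difference between the NANCI and LL34 changes of Plaur was 2.17 (SE 0.161, limma adjusted p = 6.50e-06).

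**Figure D2:**
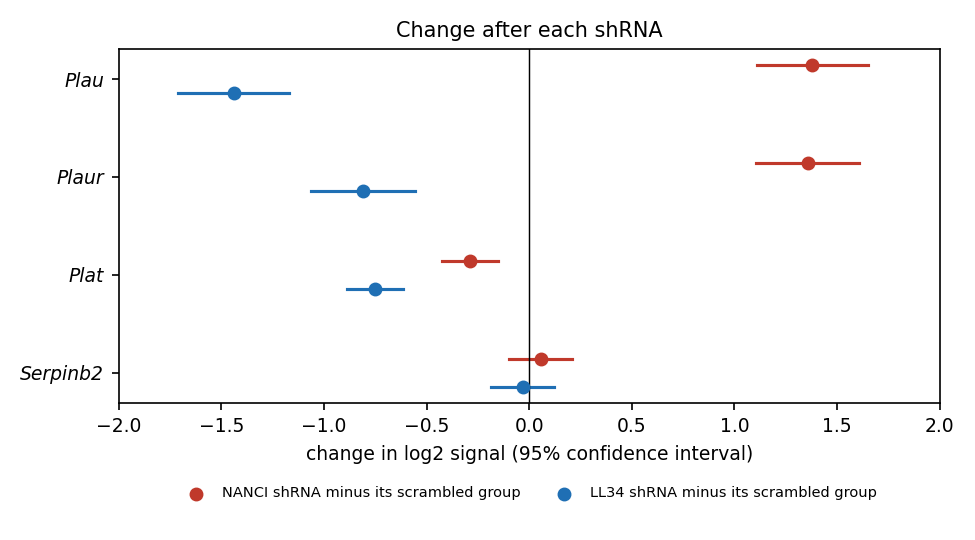
Change in log2 signal of each member, shRNA minus the scrambled group of its own set, with the 95% confidence interval of the limma fit (3 arrays per group); red is NANCI and blue is LL34. Plau and Plaur lie at 1.38 and 1.36 for NANCI and at −1.44 and −0.81 for LL34, Plat lies left of 0 in both, and both Serpinb2 intervals include 0.

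The Plaur promoter is shown because Plaur changed in opposite directions in the sets and its sequence holds a match to the motif of AP-1, the Fos and Jun family of factors described further down. Promoters of Plau and Plat were not analysed here. These are the 250 bases upstream of a RefSeq start of Plaur (GRCm38.p6, chr7:24462233-24462482, plus strand), 5′ to 3′, with the match to the AP-1 motif TGANTCA in capitals:
Plaur: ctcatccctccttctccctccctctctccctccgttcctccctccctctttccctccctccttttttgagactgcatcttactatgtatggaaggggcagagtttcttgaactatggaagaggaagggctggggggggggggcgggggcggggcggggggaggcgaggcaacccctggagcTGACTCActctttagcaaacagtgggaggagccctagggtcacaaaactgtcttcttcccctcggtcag

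The AP-1 match begins 69 bases upstream of the start. On both strands, 7.81% of 32851 RefSeq mouse promoter windows of 300 bases held such a match. Because the Plaur window was picked for holding the match, that share is given for scale and tests nothing. The same window held 3 matches to the Sp1 motif GGGCGG, beginning 111, 105 and 100 bases upstream, the last of which shares a base with its neighbour; 35.7% of all windows held at least 1. It held no match to the Ets motif CCGGAAG, the NF-kB motif GGGNNTTCC, the TATA box motif TATAAA or the E-box motif CACGTG, which 8.86%, 5.82%, 13.6% and 7.15% of all windows held. Serpinb2, which was below background here, has 2 RefSeq starts. A TGANTCA match begins 94 bases upstream of the first of them and a TATAAA match 29 bases upstream. The window of Serpine2, whose signal was not analysed, held 0 matches to the AP-1 motif and 6 to the Sp1 motif. A match is a stretch of letters and was not tested as a binding site.

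Plau and Plaur were also compared array by array. After the mean of its own set was subtracted from each array, they correlated at r = 0.948 over the 12 arrays, as a description of 4 group positions on shared arrays. The r between Plau and Plat was 0.430, and between Plaur and Plat 0.177. Plaur stood at rank 176 for likeness to Plau among probe sets with 1 symbol. Within groups, where each array is taken from its group mean, r was 0.567 for Plau with Plaur and 0.561 for Plau with Plat. Within arrays, the Plau signal minus the Plaur signal ran from 0.000208 to 0.305 in NANCI_control, from 0.0457 to 0.386 in NANCI_shRNA and from 0.0298 to 0.348 in LL34_shRNA, but from 0.760 to 0.905 in LL34_control. That difference changed by 0.0224 after NANCI shRNA (exact permutation test, two-sided, p = 0.9) and by −0.63 after LL34 shRNA (p = 0.1, exact permutation test), and 0.1 is the smallest p that 3 arrays against 3 allow. By these ranges LL34_control did not overlap the other groups, and no test was made between sets. The difference is between probe sets and gives no ratio of transcripts.

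**Figure D3:**
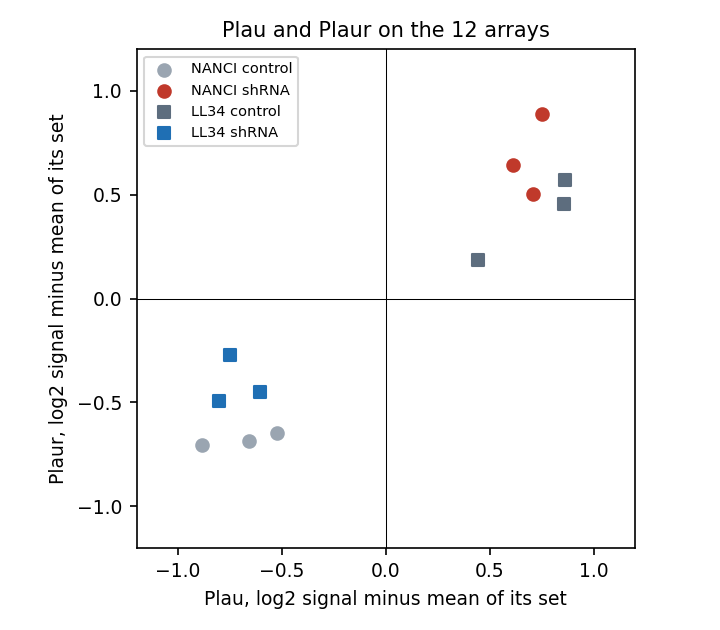
Plaur against Plau on the 12 arrays, each as log2 signal minus the mean of the 6 arrays of its set; circles are the NANCI set, squares the LL34 set, and colours the groups. NANCI_shRNA and LL34_control arrays are in the upper right and NANCI_control and LL34_shRNA arrays in the lower left (r = 0.948).

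Plau levels ordered the groups as NANCI_shRNA, LL34_control, NANCI_control and LL34_shRNA, with no overlap between neighbours. The order of Plaur was the same, but the LL34_control and NANCI_control arrays overlapped. After quantile normalization over all arrays both genes kept that order, and the scrambled groups no longer overlapped for Plaur, with means of 8.43 in LL34_control and 8.22 in NANCI_control. For Plau those means were 9.22 and 8.39, and no test was made between sets.

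Plat encodes tissue plasminogen activator. Its signals were 10.52, 10.39 and 10.47 on the NANCI_shRNA arrays and 10.84, 10.69 and 10.72 on the NANCI_control arrays. The groups did not overlap, as in 15.5% of all probe sets in that direction, though the gap was small. Plat fell by 0.29 (SE 0.0618, 95% confidence interval −0.42 to −0.15, limma adjusted p = 0.00600), from 10.75 ± 0.0764 to 10.46 ± 0.0632, to 81.9% of its scrambled level. That fall ranked 4508 among all probe sets.

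The fall in Plat was larger in the LL34 set. LL34_shRNA arrays read 10.45, 10.48 and 10.36, against 11.19, 11.21 and 11.13 on the LL34_control arrays. The mean went from 11.18 ± 0.0452 to 10.43 ± 0.0621, a change of −0.75 (SE 0.0618, 95% confidence interval −0.89 to −0.61, limma adjusted p = 2.02e-05) that left 59.5%. The changes after NANCI and LL34 shRNA differed by 0.46 (SE 0.0874, limma adjusted p = 0.00319). Plat was highest in LL34_control, followed by NANCI_control, and the arrays of both shRNA groups overlapped; after quantile normalization their order turned, to 10.45 in LL34_shRNA and 10.42 in NANCI_shRNA.

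Over all probe sets, 1.73% were called higher after NANCI shRNA and lower after LL34 shRNA, as Plau and Plaur were, and 1.92% were called lower in both, as Plat was.

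Serpinb2 encodes plasminogen activator inhibitor 2, a serpin that stays largely inside the cell. Its signal lay between 4.42 and 4.74 on all arrays, at 0 of 12 above the background level. No difference was detectable at that level: the change was 0.06 after NANCI shRNA (SE 0.0695, 95% confidence interval −0.10 to 0.21, limma adjusted p = 0.702) and −0.03 after LL34 shRNA (SE 0.0695, 95% confidence interval −0.19 to 0.12, adjusted p = 0.838). In LL34_shRNA 2 of its 3 arrays had exactly the same value, so the SD of that group says little of the spread between cultures.

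The wider plasminogen list held 52 genes, of which 48 were measured and the others were not analysed here. After NANCI shRNA 3 rose and 13 fell, so 33.3% were called beside 26.8% of all 22180 named genes. After LL34 shRNA 5 rose and 13 fell, or 37.5% beside 20.0%. The median change of the list was −0.03 after NANCI and −0.05 after LL34 shRNA, beside 0.0042 and −0.02 over all named genes. Its members were grouped by role with their values known, and those groups are described by counts alone. This list and those below were chosen with earlier results of these data known. Their counts were not tested against the shares of all named genes.

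Plasminogen itself (Plg) was at 0 of 12 arrays above background and measured 0.08 after NANCI (limma adjusted p = 0.622) and 0.0040 after LL34 shRNA (adjusted p = 0.985). Of the 4 measured genes for plasminogen and its surface binding, 3 fell after NANCI shRNA and 2 after LL34 shRNA. Over all named genes 26.8% and 20.0% were called in either direction. Anxa2, annexin A2, which with S100a10 forms a surface complex that binds plasminogen and tissue plasminogen activator, fell by 0.31 after NANCI (SE 0.0827, adjusted p = 0.0192) and by 0.90 after LL34 shRNA (SE 0.0827, adjusted p = 4.08e-05). The NANCI call of Anxa2 was lost without NANCI_control replicate 1 (−0.28, adjusted p = 0.0734), NANCI_control replicate 3 (−0.31, 0.0559) or NANCI_shRNA replicate 3 (−0.24, 0.0711). Of 7 measured inhibitors limma called 0 after NANCI shRNA, where 1 had an unadjusted p under 0.05, and 1 fell after LL34 shRNA; 4 of the 7 were above background on no array. The inhibitor that fell was 1 of those 4, Serpinb8 (−0.42, limma adjusted p = 0.0474). Its call was lost in every fit that left out 1 array except those without LL34_control replicate 3, NANCI_control replicate 2 or NANCI_control replicate 3, with adjusted p up to 0.168.

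Several receptors take activator and inhibitor complexes into the cell. The list counts 6 endocytic receptors, not all of which take up such complexes. Of the 6, 4 fell after NANCI shRNA with no rise, and 2 rose and 3 fell after LL34 shRNA. The shares called in either direction over all named genes were 26.8% and 20.0%. Vldlr, a lipoprotein receptor that also takes up urokinase bound to its inhibitor, measured −2.25 after NANCI (SE 0.0754, limma adjusted p = 7.82e-08) and 1.74 after LL34 shRNA (SE 0.0754, adjusted p = 4.09e-07), the reverse of Plau in both sets. Lrp2, megalin, fell by 0.71 and by 0.75 (adjusted p = 5.73e-05 and 8.45e-05). Mrc2, a collagen uptake receptor that associates with the urokinase receptor, fell by 0.84 and by 0.31 (adjusted p = 2.96e-06 and 0.00431). Sorl1, a sorting receptor, fell by 0.67 after NANCI shRNA (adjusted p = 0.000385) and measured −0.25 after LL34 shRNA (adjusted p = 0.103). Igf2r, which binds the urokinase receptor among other ligands, rose by 0.54 after LL34 shRNA (adjusted p = 0.000528) and measured −0.02 after NANCI shRNA (adjusted p = 0.937).

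Among 8 integrins and adhesion partners, 2 rose and 3 fell after NANCI shRNA, and 1 rose and 4 fell after LL34 shRNA. Beside these counts, 26.8% and 20.0% of all named genes were called in either direction. Itga3, the laminin-binding integrin α3 subunit that partners with the urokinase receptor in epithelial cells, went the way of Plau: it rose by 0.55 after NANCI (SE 0.0836, limma adjusted p = 0.000649) and fell by 1.38 after LL34 shRNA (SE 0.0836, adjusted p = 3.18e-06). Itga5, the fibronectin receptor subunit, fell by 0.57 (adjusted p = 0.00520) and rose by 0.63 (adjusted p = 0.00396). Itgb3, a subunit of the vitronectin receptor, fell by 0.70 and by 0.56 (adjusted p = 0.000115 and 0.000949). Itgb5, another vitronectin receptor subunit, fell by 0.58 after NANCI shRNA (adjusted p = 0.000115) and measured 0.0075 after LL34 shRNA (adjusted p = 0.967). Itgav, their α partner, rose by 0.22 after NANCI (adjusted p = 0.00761) and fell by 0.55 after LL34 shRNA (adjusted p = 3.88e-05), while its dimmer probe set measured 0.14 and −0.10 (adjusted p = 0.194 and 0.427). The rise of Itgav had an adjusted p of 0.0506 in a limma fit of its 6 arrays alone. Cd44, a hyaluronan receptor, fell by 0.72 after LL34 shRNA (adjusted p = 0.000224) and measured −0.27 after NANCI shRNA (adjusted p = 0.0520).

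**Figure D4:**
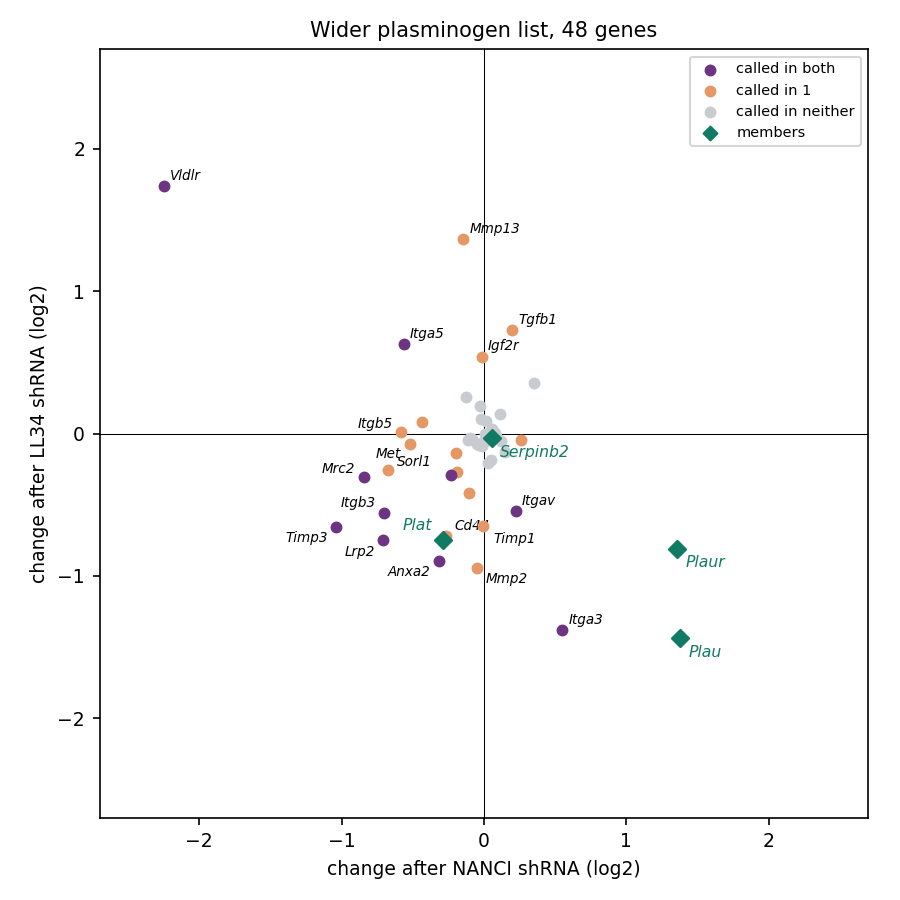
Change after LL34 shRNA against change after NANCI shRNA (log2, each against its own scrambled group) for the 48 measured genes of the wider plasminogen list and the 4 members (green diamonds); colours give in how many comparisons limma called the gene. Plau, Plaur and Itga3 lie at the lower right, and Vldlr at the upper left with −2.25 and 1.74.

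Plasmin can activate matrix metalloproteinases. Of 10 genes for these proteases and their inhibitors, 1 rose and 2 fell after NANCI shRNA, and 1 rose and 3 fell after LL34 shRNA. Calls in either direction covered 26.8% and 20.0% of all named genes. Timp3, a matrix-bound metalloproteinase inhibitor, fell by 1.04 (SE 0.0582, limma adjusted p = 8.36e-07) and by 0.66 (SE 0.0582, adjusted p = 3.06e-05). After LL34 shRNA Timp1 fell by 0.65 (adjusted p = 0.00226), the gelatinase gene Mmp2 fell by 0.95 (adjusted p = 0.000453) and the collagenase gene Mmp13 rose by 1.37 (adjusted p = 9.25e-05), with Mmp13 above background on 5 of 12 arrays. After NANCI shRNA these measured −0.0069, −0.05 and −0.15 (adjusted p from 0.601 to 0.983). None of 9 serine protease and coagulation genes was called by limma in either comparison. At an unadjusted p under 0.05 the count was 0 after NANCI and 1 after LL34 shRNA. Only 2 of the 9 were above background on all 12 arrays and 4 on no array, which limits what the lack of calls can show. Met, the receptor of hepatocyte growth factor, fell by 0.52 after NANCI shRNA (adjusted p = 0.00331) and measured −0.07 after LL34 shRNA (adjusted p = 0.739). Tgfb1, a latent growth factor that plasmin can activate, rose by 0.73 after LL34 shRNA (adjusted p = 0.000284) and measured 0.20 after NANCI shRNA (adjusted p = 0.177).

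Factors of the AP-1 and Ets families, which are known to act on the genes of urokinase and its receptor, were called in 9 of 20 cases after NANCI shRNA, 6 higher and 3 lower, and in 7 after LL34 shRNA, 2 higher and 5 lower. That was 45.0% and 35.0% of the list, beside 26.8% and 20.0% of all named genes. After NANCI shRNA Junb, an AP-1 subunit, rose by 1.40 (SE 0.121, limma adjusted p = 1.23e-05), the Ets family gene Etv4 by 1.16 (SE 0.0666, adjusted p = 9.68e-07), Ets1 by 1.09 (SE 0.0968, adjusted p = 1.48e-05) and Fosb by 0.77 (SE 0.0822, adjusted p = 5.04e-05). After LL34 shRNA Elk3 fell by 0.79 (SE 0.104, adjusted p = 0.000432), Atf3 by 0.49 (adjusted p = 0.000481), Jund by 0.45 (adjusted p = 0.000459), and Ets2 rose by 0.52 (adjusted p = 0.000737). The dimmer probe set of Jund measured −0.27 and was not called (limma adjusted p = 0.129).

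Other AP-1 genes fell after NANCI shRNA, where Plau and Plaur rose. Fosl2 fell by 0.34 (limma adjusted p = 0.00291) and Jun by 0.35 (adjusted p = 0.0346), and Fos measured −0.50 (adjusted p = 0.0891). The Jun call was lost without NANCI_control replicate 1 or 3, NANCI_shRNA replicate 2 or 3, or LL34_shRNA replicate 2 (adjusted p from 0.0503 to 0.125). After LL34 shRNA Fosl2 fell by 0.43 (adjusted p = 0.00101), while Jun and Fos measured −0.31 and −0.56 (adjusted p = 0.0701 and 0.0626).

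Ets1 and Elk3 were called in both sets in the directions of Plau. Etv5, also of the Ets family, was called higher in both, which is against Plau in the LL34 set. It rose by 0.60 after NANCI and by 0.57 after LL34 shRNA (limma adjusted p = 0.00537 and 0.00988). The dimmer Etv5 probe set measured 0.08 and 0.30 (adjusted p = 0.648 and 0.0361). Ets1 fell by 0.42 after LL34 shRNA (adjusted p = 0.0121), a call lost without LL34_shRNA replicate 2 (−0.38, adjusted p = 0.0509), and Elk3 rose by 0.45 after NANCI shRNA (adjusted p = 0.00961). Junb, Etv4 and Fosb measured −0.16, −0.12 and −0.07 after LL34 shRNA (adjusted p = 0.465, 0.294 and 0.685). Whether any AP-1 or Ets factor had a part in the changes of Plau and Plaur was not tested.

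**Figure D5:**
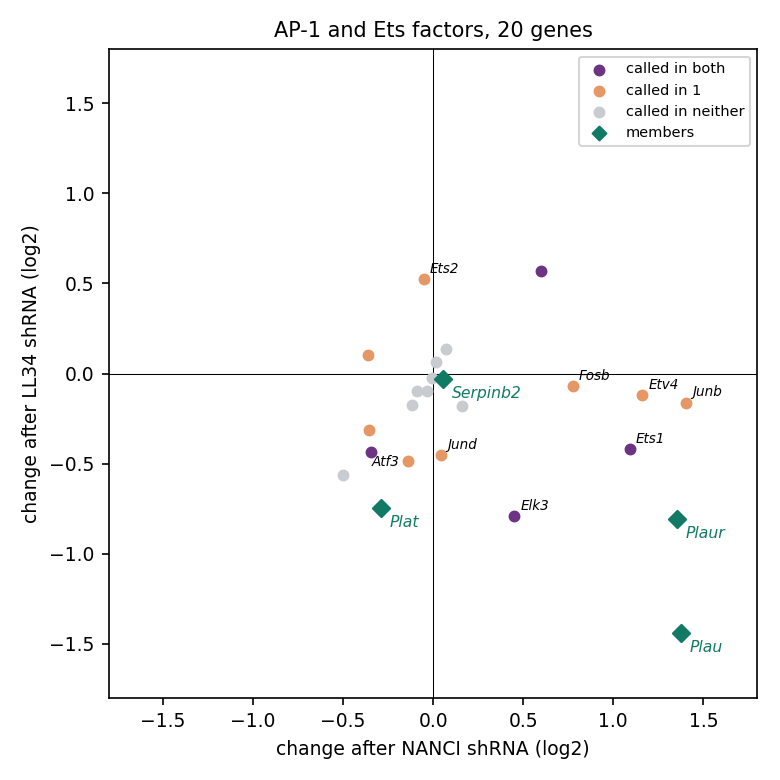
Change after LL34 shRNA against change after NANCI shRNA (log2) for 20 AP-1 and Ets genes and the 4 members (green diamonds); colours give in how many comparisons limma called the gene, and the names are those of the smallest p-values. Junb, Etv4, Ets1 and Fosb lie to the right as Plau and Plaur do, and Elk3 and Ets1 lie below 0 for LL34.

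Cell type markers were read beside these results because macrophages, fibroblasts and endothelium also express members. Of 12 markers of distal lung epithelium, between 9 and 11 were above background on any array; Sftpd was at 0 of 12 arrays and Epcam at 5. Of these markers 1 rose and 5 fell after NANCI shRNA, and 2 rose and 4 fell after LL34 shRNA, or 50% in each comparison beside 26.8% and 20.0% of all named genes. The 4 smallest p-values after NANCI shRNA were those of Cdh1 (−1.56), Abca3 (−1.24), Nkx2-1 (−0.998) and Krt8 (−0.43), and after LL34 shRNA Krt8 (−0.67), Foxa2 (−0.39), Sftpb (0.62) and Epcam (0.33, limma adjusted p = 0.0324). Without LL34_control replicate 3, LL34_shRNA replicate 1 or LL34_shRNA replicate 3 the Epcam call was lost, with 0.24 (adjusted p = 0.0920), 0.25 (0.131) and 0.37 (0.0538), and it was lost with quantile normalization too (0.29, 0.0650). The LL34 falls include Nkx2-1 (−0.27, limma adjusted p = 0.0327), a call lost without LL34_control replicate 1 or 2 or any 1 of the LL34_shRNA arrays (adjusted p from 0.0862 to 0.119).

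Of 8 macrophage and leukocyte markers, 2 rose after NANCI shRNA, as Plau and Plaur did, and none fell, so 25.0% of the list was called beside 26.8% of all named genes. The log2 of their summed signal ran from 10.42 to 10.54 in NANCI_shRNA and from 9.73 to 9.77 in NANCI_control, and from 9.40 to 9.47 in LL34_shRNA and from 9.56 to 9.74 in LL34_control. The genes that rose were Cd14, a lipopolysaccharide co-receptor, by 1.73 (SE 0.165, limma adjusted p = 2.42e-05) and Cd68, which encodes a lysosomal glycoprotein, by 0.88 (SE 0.108, adjusted p = 0.000145). The median change of the list was 0.06. The other markers, Ptprc, Adgre1, Itgam, Csf1r, Lyz2 and Fcgr1 were each above background on 0 of 12 arrays. After LL34 shRNA limma called 0 of 8, beside 20.0% of all named genes, and 2 had an unadjusted p under 0.05.

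Fibroblast markers were above background for 5 or 6 of 8 genes on every array. The log2 of their summed signal was lower in NANCI_shRNA (12.22 to 12.35) than in NANCI_control (12.99 to 13.19), and that sum is mostly Dcn, the gene of the proteoglycan decorin. Dcn fell by 0.91 (limma adjusted p = 8.05e-06), from a mean of 12.90 to 11.99, while the other 7 genes were not called and had group means of at most 8.40. The median change of the fibroblast list was −0.05. Its other named genes, Col1a1, Lum, Col1a2, Pdgfrb, Thy1 and Pdgfra, measured between −0.23 and 0.12 over both comparisons. In the LL34 set the ranges were 12.96 to 13.06 and 12.93 to 12.98, and limma called 0 of 8, with 1 at an unadjusted p under 0.05. That made 12.5% of the fibroblast list called after NANCI and 0% after LL34 shRNA, beside 26.8% and 20.0% of all named genes. Of 8 endothelial markers only Tek, an angiopoietin receptor, was called, and it fell by 1.05 after NANCI (adjusted p = 0.00141) and by 1.26 after LL34 shRNA (adjusted p = 0.000715), in the direction of Plat in both. Tek alone made up the 12.5% of the list called in each comparison, beside 26.8% and 20.0% of all named genes. Cdh5, Kdr, Tie1, Cldn5 and Vwf measured between −0.22 and 0.18 and were not called. Between 1 and 3 of the 8 endothelial markers were above background on any array, which limits what the lack of calls can show. The endothelial summed signal ran from 9.48 to 9.55 in NANCI_shRNA and 9.72 to 9.77 in NANCI_control, and from 8.97 to 9.01 in LL34_shRNA and 9.33 to 9.48 in LL34_control. The part of these cell types in the changes of the members was not tested.

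Genes whose pattern was most like a member were ranked by Pearson r over the 12 arrays, after the mean of each set was subtracted, among 20465 named probe sets. For Plau these were Igf2bp3, an RNA-binding protein gene (r = 0.993; 0.84 after NANCI and −0.85 after LL34 shRNA), Dse, a dermatan sulfate epimerase gene (r = 0.993; 0.70 and −0.73), and Psmd8, a proteasome subunit gene (r = 0.991; 0.67 and −0.68). The most opposite was Hspa9, a mitochondrial chaperone gene (r = −0.986; −0.54 and 0.59). Plaur was most like Atp6v1b2, a subunit of the vacuolar proton pump (r = 0.993; 0.41 and −0.23), Spryd4 (r = 0.991; 1.09 and −0.65) and Commd2 (r = 0.991; 0.70 and −0.39), and most opposite to the homeobox gene Hoxb9 (r = −0.990; −1.68 and 1.03). For Plat the leading genes were Vat1l (r = 0.993; −0.73 and −1.54), Syngr2 (r = 0.992; −0.14 and −0.39) and Prelp, a matrix proteoglycan gene (r = 0.990; −0.69 and −1.61), with Capn15 the most opposite (r = −0.986; 0.15 and 0.43). All 12 of these genes were called after LL34 shRNA, and 10 after NANCI shRNA, where Syngr2 and Capn15 had limma adjusted p of 0.0665 and 0.0529. With that many genes in the ranking and 4 groups on shared arrays, the r values are descriptions.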

How the data were processed

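The deposited table held 1 value per probe set and array for 12 arrays in 4 groups of 3. The authors' deposited values are log2 signals; per the submitters' processing notes, oligo, RMA and limma were used, with versions, order and genome build not given in the sources used here. RMA summarises and normalizes arrays run together, and whether the NANCI and LL34 sets were run together is not given. Single arrays of the NANCI set shared up to 27 exactly equal values with another array, and of the LL34 set up to 1681. The number of arrays limits the precision.

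The platform annotation gave 1 symbol to 23521 probe sets, several to 1814 and none to 16010; 23328 of the first had their symbol updated or kept through the gene table. Differences were computed with limma 3.58.1 in R 4.3.3 (lmFit, contrasts.fit, eBayes) on all 41345 probe sets, with 4 group means, 8 residual degrees of freedom and Benjamini-Hochberg adjustment at 0.05 in each comparison. The difference of both changes was a contrast of the same fit. The fit was tested on simulated data. For a gene with several probe sets the brightest stood for it. A value counted as above background when it exceeded the 95th percentile of the olfactory receptor probe sets on its array. Promoter windows of 300 bases are from RefSeq (GRCm38.p6).

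The members and lists were chosen with earlier results of these data known. Named are all members, the wider plasminogen genes called with a change of at least 0.5 in size, Plg, the 4 smallest p-values per comparison of the AP-1 and Ets list and of each marker list, and for each called member the 3 most alike genes and the most opposite. Sfta3-ps, Ptprc, Adgre1, Sftpd, Jun, Fosl2, Fos, Etv5, Serpinb8 and, in the LL34 set, Nkx2-1 fall outside that rule and were named after their values were seen, as were values given beside those of the other set. Alternatives were quantile normalization, median centring, the 6 arrays of a set alone, array weights, trended robust moderation, a filter at the median level, adjustment over named probe sets, a replicate block and leaving out each array.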

Additional observations from a re-analysis of the deposited data

Results flagged for a closer look

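The changes after NANCI and LL34 shRNA, each against its own scrambled group, were compared by a limma contrast over all probe sets. Values here are the NANCI change minus the LL34 change on the log2 scale, and each difference had an adjusted p below the threshold, by Benjamini-Hochberg adjustment.

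Among the members the difference was 2.82 for Plau, 2.17 for Plaur and 0.46 for Plat. The first pair had changes of opposite sign in the sets, whereas Plat fell in both and fell further after LL34 shRNA.

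Of the endocytic receptors, Vldlr differed by −3.99, Mrc2 by −0.54 and Igf2r by −0.56. Vldlr thus differed more in size than any member, in the other direction. Of the integrins and adhesion partners, Itga3 differed by 1.93, Itgav by 0.77 and Cd44 by 0.46, and Itga5 by −1.19 and Itgb5 by −0.59. Anxa2, the annexin that binds plasminogen, differed by 0.58. Among matrix protease genes the values were 0.90 for Mmp2, 0.64 for Timp1, −0.38 for Timp3 and −1.51 for Mmp13, and Tgfb1 differed by −0.53.

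Among AP-1 and Ets genes, Junb differed by 1.56, Ets1 by 1.51, Etv4 by 1.28, Elk3 by 1.24, Fosb by 0.84, Jund by 0.50 and Atf3 by 0.35, with Ets2 at −0.58. The epithelial markers gave −1.33 for Cdh1, −1.10 for Abca3, −0.88 for Sftpb, −0.73 for Nkx2-1 and 0.68 for Foxa2. The macrophage markers Cd14 and Cd68 gave 2.15 and 1.11, and the fibroblast marker Dcn gave −0.98.

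Some of these calls depended on single arrays or on the fit. That of Atf3 was lost without NANCI_control replicate 1, NANCI_shRNA replicate 1 or 3, or LL34_shRNA replicate 2 (limma adjusted p from 0.0515 to 0.0575). That of Cd44 was lost without NANCI_control replicate 2, NANCI_shRNA replicate 1 or LL34_shRNA replicate 2 (adjusted p from 0.0517 to 0.0563). With the replicate number as a block the calls of Tgfb1 and Atf3 were lost (adjusted p = 0.0519 and 0.0657). The dimmer probe sets of Itgav and Jund differed by 0.24 and 0.40 and were not called (limma adjusted p = 0.118 and 0.0992). What lies behind the differences in this section was not tested.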

How the results depend on the processing

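Of 233 values of the members' changes under the alternatives, 232 kept their direction and their side of the threshold, and each setting called 3 members in each comparison. The exception was Serpinb2 after LL34 shRNA, which turned to 0.0149 without LL34_control replicate 1 (−0.0621 to 0.0149 over the arrays left out in turn). Leaving out 1 array in turn, Plau changed by 1.28 to 1.46 after NANCI and by −1.58 to −1.37 after LL34 shRNA, Plaur by 1.25 to 1.44 and by −0.92 to −0.73, and Plat by −0.32 to −0.24 and by −0.77 to −0.71. Of 1686 values for calls of named genes, 47 lost the call and 0 reversed. Etv5, Sfta3-ps and the genes ranked as most alike or most opposite to a member were not put through the alternatives. Levels depend on scaling. With arrays centred on their medians, Plat read 11.33 in LL34_control, 10.55 in LL34_shRNA, 10.61 in NANCI_control and 10.32 in NANCI_shRNA; Plau 7.84 in LL34_shRNA and 9.67 in NANCI_shRNA; Plaur 7.65 in LL34_shRNA and 8.12 in NANCI_control; and Serpinb2 4.63, 4.57, 4.48 and 4.54 in the order given for Plat. Quantile normalization gave 8.22 for Plaur in NANCI_control, and 4.60, 4.54, 4.52 and 4.57 for Serpinb2. The count of all probe sets higher after LL34 shRNA was 4011, and 2334 when p-values were adjusted over named probe sets, 2640 without LL34_shRNA replicate 1 and 2610 without replicate 3. Deviations of arrays with the same replicate number had r between −0.0568 and 0.0123 for NANCI and between −0.125 and 0.0451 for LL34. Arrays with different numbers had r between −0.0805 and 0.120 and between −0.150 and 0.134. With 3 arrays a group, such r cannot decide whether cultures with the same replicate number were handled together. With the replicate number as a block the limma adjusted p after NANCI and LL34 shRNA was 0.000462 and 0.000823 for Plau, 0.000698 and 0.00745 for Plaur, and 0.0155 and 0.000852 for Plat. The wider list then had 2 higher and 10 lower, and 5 and 12. The filter at the median level gave no value for Serpinb2, the fit of 6 arrays gave no difference of changes, and the array weights stopped before reaching their tolerance. Signals near background limit what Serpinb2 and Plg can show.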

Other observations

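The probe set shared by Serpinb10 and Serpinb2 (17216469) measured 0.07 after NANCI shRNA (limma adjusted p = 0.593) and −0.09 after LL34 shRNA (adjusted p = 0.419), and was called in neither comparison.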
